A study of Mus musculus with 4 samples.

Results

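The genes described here are 10 genes of the endoplasmic reticulum unfolded protein response, Hspa5, Hsp90b1, Calr, Pdia4, Pdia6, Manf, Creld2, Xbp1, Atf4 and Ddit3. They were chosen by name, as every probe set whose gene symbol in the authors' deposited table is one of these 10. This gave 22 of the 45101 probe sets, and 10 of the 20802 genes with a symbol. The study measured RNA of cerebral cortex from female C57BL/6J mice, an inbred laboratory strain, at an age of 90 days. Pregnant dams received nicotine or saccharin solution from conception, the offspring were weaned from it at an age of 21 days, and they were then left undisturbed. The protocol describes pools of RNA from 4 animals each, 5 pools per group and 20 subjects in total, and 4 Affymetrix arrays were analysed here, 2 titled nicotine and 2 titled saccharin, numbered 1 and 2 within each title. The titles and the source names of these arrays contradict each other on the exposure, so groups are named by title. Differences between titles subtract the titled saccharin value from the titled nicotine value, and every sign turns if the source names are right. The labels do not explain the array numbers, nor say that arrays sharing a title came from different pools. The p-values therefore cover only the variation among these arrays, which may be technical.

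Proteins that enter the endoplasmic reticulum fold there with the help of chaperones and of enzymes that make disulfide bonds. When unfolded proteins build up, the sensors Ire1, Perk and Atf6 in its membrane start a response that raises folding capacity and lowers the protein load. Ire1 splices the messenger RNA of Xbp1, Perk phosphorylates eIF2alpha and thereby favours translation of Atf4, and Atf6 is cut to release a transcription factor. In secretory cells and neurons this pathway is active at a basal level, and prolonged activation induces Ddit3, also known as Chop. The arrays measure transcript levels, not splicing of Xbp1 or translation of Atf4.

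Several of these genes carry the endoplasmic reticulum stress element (ERSE), to which Atf6 and Xbp1 bind together with NF-Y. It was searched as CCAAT and CCACG with any 9 bases between them. The 250 bases before the start of each gene were taken from RefSeq promoters of assembly GRCm38.p6, where 9 of the 10 genes matched, all but Manf. On either strand, ERSE was found in 5 of these 9, those of Hspa5, Hsp90b1, Calr, Pdia6 and Creld2, and in 0.113% of all 32851 promoter windows of the table. The matches are shown because all 3 chaperone genes hold the element, while of the disulfide isomerase genes Pdia6 holds it and Pdia4 does not in this window. They are written here in the orientation of the element, with CCAAT and CCACG in capitals:
Hspa5: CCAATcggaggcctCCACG
Hsp90b1, first match: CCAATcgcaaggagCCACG
Hsp90b1, other match: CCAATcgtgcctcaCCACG
Calr: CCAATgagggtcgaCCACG
Pdia6: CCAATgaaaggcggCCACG
Creld2: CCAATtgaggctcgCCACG

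The windows of Hspa5 and of Hsp90b1, the only gene of the 9 with a match on each strand, are given whole, read 5′ to 3′ on the strand of the gene with ERSE matches in capitals. That of Hspa5 lies on the plus strand at chr2:34771840-34772089 and that of Hsp90b1 on the minus strand at chr10:86705445-86705694.
Hspa5: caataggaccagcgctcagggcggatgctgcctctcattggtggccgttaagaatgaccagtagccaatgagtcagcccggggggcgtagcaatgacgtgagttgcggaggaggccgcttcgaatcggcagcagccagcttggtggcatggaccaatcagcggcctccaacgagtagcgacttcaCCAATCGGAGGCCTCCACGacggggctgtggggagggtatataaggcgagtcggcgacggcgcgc
Hsp90b1: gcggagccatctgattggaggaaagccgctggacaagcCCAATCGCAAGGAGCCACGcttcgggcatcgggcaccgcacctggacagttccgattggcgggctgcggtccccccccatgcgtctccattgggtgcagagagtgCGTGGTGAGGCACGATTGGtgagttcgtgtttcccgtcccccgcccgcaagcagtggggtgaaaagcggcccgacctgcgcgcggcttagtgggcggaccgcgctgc

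The other letters searched on both strands were ERSE-II (ATTGG and CCACG with any 1 base between them), TGACGTGG (core of the unfolded protein response element) and TGATGNAA (core of the C/EBP-ATF element). None of the 9 windows held any of these, which stood in 0.0304%, 0.563% and 3.45% of all windows. The parts of ERSE are more common. CCAAT was in 8 of the 9 and in 33.8% of all, and CCACG was in 6 of the 9 and in 28.3% of all, counts that take in the ERSE matches. Where the letters were not found, this says only that they are not in that window.

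The array values are log2 expression values, taken as deposited. The array medians lay between 3.88 and 4.09, and on each array 25.1% to 25.4% of values stood at the minimum, 2.10. A probe set is called bright here where its mean over the arrays was at least 4.04, the median over all probe sets, and a gene where its brightest probe set was. This held for 22551 probe sets and 12234 genes. Cortical markers were present, with 5 of 5 excitatory and 6 of 6 inhibitory neuron markers bright. Of the plasma cell markers, which would mark cells with a very active secretory pathway, 2 were measured and 0 were bright. The 4 arrays resembled each other by number: the shift from number 1 to number 2 in one title correlated with that in the other at r = 0.857 across the bright probe sets, which are not independent of each other. The difference of the Actb 3′ and 5′ control probe sets, which depends on RNA quality and labelling, was 2.39 and 2.38 on the arrays numbered 1 but 1.25 and 1.73 on those numbered 2, titled nicotine first. For the Gapdh control probe sets it changed less, from 0.092 and 0.13 on the arrays numbered 1 to -0.14 and 0.0070 on those numbered 2. In tissue RNA, fewer cells of a type and less RNA per cell cannot be told apart.

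All 10 genes read higher in titled nicotine within number 1 at their brightest probe set, by 0.053 to 0.41 with a median of 0.23, and 4 of the 10 did so within number 2, where the median was -0.0076. Over both numbers the median difference of the 10 was 0.094, against -0.029 for the 12234 bright genes. None passed the test between the titles: each of the 22 probe sets had an adjusted p of 1 in limma, fitted over all probe sets, of which 0.00222% were called. None of the 22 had an unadjusted p under 0.05 either, against 0.769% of all probe sets. An exact two-sided permutation of 2 arrays against 2 cannot give a p below 0.333. Of the 22 probe sets 19 were bright. The other 3, a dim one each of Pdia6, Atf4 and Ddit3, read 2.20, 3.46 to 3.51 and 2.10, so they carry little or no signal and are left out of the counts that follow.

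**Figure D1:**
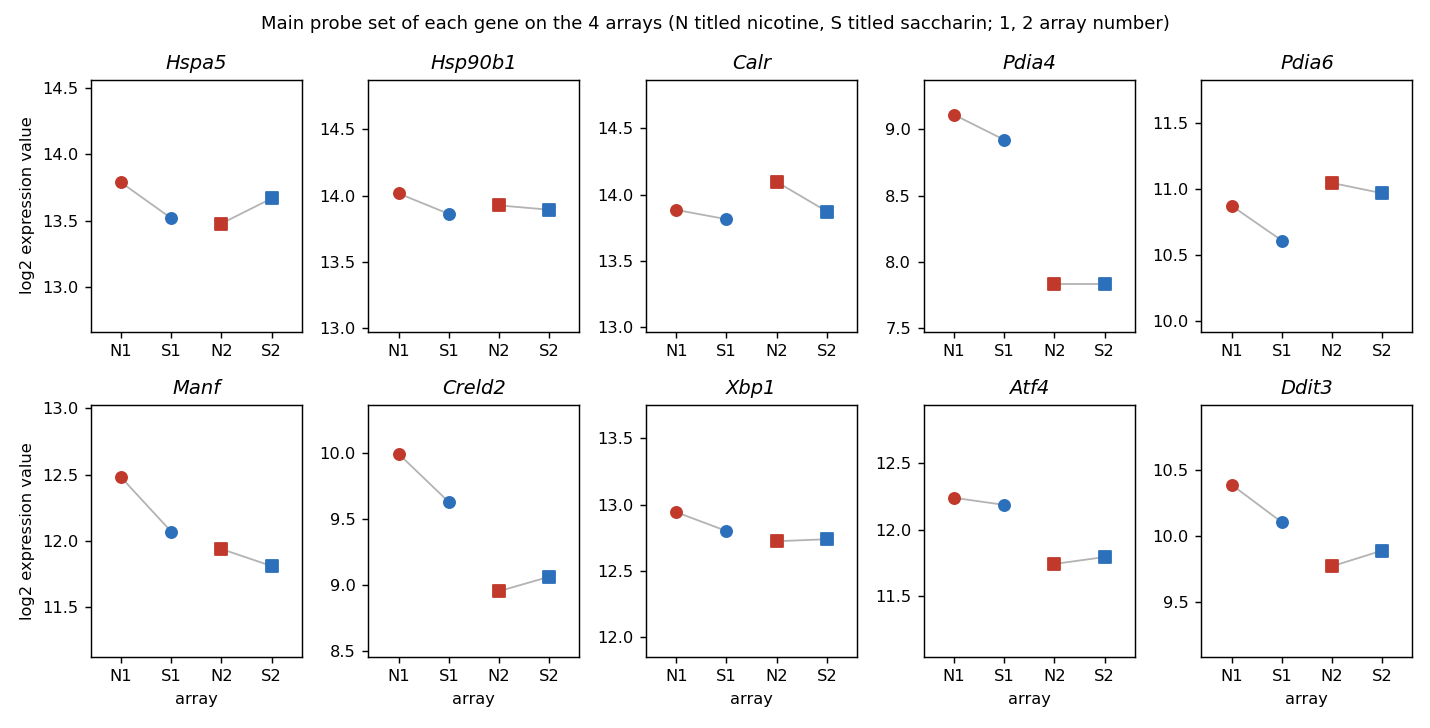
Log2 expression value of the brightest probe set of each of the 10 genes on each array, N for titled nicotine (red) and S for titled saccharin (blue), circles for number 1 and squares for number 2; grey lines join the arrays of a number, and every panel spans the same log2 range. Within number 1 the red circle is above the blue one in all 10 panels, while within number 2 the order varies from gene to gene.

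Of the chaperones, Hspa5 encodes BiP, the main Hsp70 of the endoplasmic reticulum, which also holds the stress sensors inactive. Its brightest probe set read 13.79 on titled nicotine 1, 13.48 on titled nicotine 2, 13.52 on titled saccharin 1 and 13.67 on titled saccharin 2. Titled nicotine 1 was the highest and titled nicotine 2 the lowest, so the groups overlapped. The means were 13.63 ± 0.22 and 13.59 ± 0.11 (SD, n = 2 each), a difference of 0.041 (SE 0.16). It was 0.27 within number 1 and -0.19 within number 2. Another Hspa5 probe set read 13.68 and 12.95 in titled nicotine and 13.18 and 12.92 in titled saccharin, numbers 1 and 2 in that order, with differences of 0.50 within number 1 and 0.032 within number 2. The difference of 0.50 was the largest of the 19 within number 1. The dimmest of this gene, of a kind that can also bind related transcripts, read 9.43 and 8.74 in titled nicotine and 9.28 and 8.22 in titled saccharin, and differed by 0.14 within number 1 and 0.53 within number 2. The probe sets of Hspa5 therefore gave one direction within number 1 and different ones within number 2.

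Hsp90b1 encodes Grp94, the Hsp90 of the endoplasmic reticulum. Its brightest probe set read 14.02 and 13.93 on titled nicotine 1 and 2, and 13.86 and 13.89 on titled saccharin 1 and 2. Here the titles did not overlap, with means of 13.97 ± 0.064 and 13.88 ± 0.022 and a difference of 0.093 (SE 0.044, n = 2 each). Its other probe set behaved differently, at 10.48 and 12.41 in titled nicotine and 10.59 and 11.58 in titled saccharin. Both arrays numbered 2 were well above both numbered 1, and the difference between the titles was -0.11 within number 1 and 0.84 within number 2. This is the only one of the 19 that was lower in titled nicotine within number 1.

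Calr encodes calreticulin, a lectin chaperone that binds calcium and folds glycoproteins. The brightest probe set read 13.88 and 14.10 in titled nicotine and 13.81 and 13.87 in titled saccharin, numbers 1 and 2. The titles did not overlap, and the difference was 0.15 (SE 0.10, n = 2 each), with 0.070 within number 1 and 0.22 within number 2. Of the other Calr probe sets, the brighter gave 0.14 and 0.13 and the dimmer 0.18 and 0.24 within numbers 1 and 2. The former read 12.09 and 12.51 in titled nicotine and 11.95 and 12.38 in titled saccharin, and the latter 11.87 and 12.14 against 11.70 and 11.90, numbers 1 and 2. Calr kept 1 direction, higher in titled nicotine in each number at all 3 probe sets, of which all but the brightest are of the kind that can also bind related transcripts. Over the 12234 bright genes, titles that do not overlap were found in 2.71% with titled nicotine higher and in 7.20% with it lower. Among the 10 genes it was 2, Hsp90b1 and Calr, both higher.

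Pdia4 and Pdia6 encode protein disulfide isomerases, which form and rearrange disulfide bonds of folding proteins. Pdia4 read 9.11 on titled nicotine 1 and 8.92 on titled saccharin 1, but 7.83 on each array numbered 2, where the deposited values are equal. The deposited values thus differed between the titles by 0.19 within number 1 and 0 within number 2. Other probe sets also repeat a value exactly, such as that of Slc7a11, at 6.45 on every array. Whether 7.83 is a floor of the Pdia4 probe set was not tested, so the 0 may not be a measured difference. Pdia6 read 10.87 and 11.04 in titled nicotine and 10.61 and 10.97 in titled saccharin, numbers 1 and 2. It was higher in titled nicotine in each number, by 0.26 and 0.078, yet the titles overlapped, since titled saccharin 2 was above titled nicotine 1. The difference over all arrays was 0.095 (SE 0.78) for Pdia4 and 0.17 (SE 0.18) for Pdia6, n = 2 each.

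Manf and Creld2 encode small proteins of the endoplasmic reticulum that are induced by stress and can be secreted. Manf is known as a neurotrophic factor. It read 12.48 on titled nicotine 1 and 12.07 on titled saccharin 1, a difference of 0.41 that was the largest within number 1 among the brightest probe sets of the 10 genes. On the arrays numbered 2 it read 11.94 and 11.81, a difference of 0.13, so that Manf was higher in titled nicotine in each number. Over all arrays the means were 12.21 ± 0.38 and 11.94 ± 0.18, a difference of 0.27 (SE 0.28, n = 2 each). Creld2 read 9.99 and 9.63 on titled nicotine 1 and titled saccharin 1, and 8.95 and 9.06 on titled nicotine 2 and titled saccharin 2. Its difference of 0.36 within number 1 was next to that of Manf in size, and within number 2 it was -0.11.

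Xbp1, Atf4 and Ddit3 encode the transcription factors of the response. Xbp1 had 4 probe sets. The brightest read 12.94 and 12.72 in titled nicotine and 12.80 and 12.74 in titled saccharin, numbers 1 and 2, with titled nicotine 1 the highest. Within number 1 the probe sets of Xbp1 differed by 0.14, 0.17, 0.20 and 0.35 in order of brightness, and within number 2 by -0.015, -0.0060, 0.12 and 0.037. Their directions agreed within number 1 and not within number 2. Atf4, the factor translated when eIF2alpha is phosphorylated, read 12.24 and 12.19 on titled nicotine 1 and titled saccharin 1, and 11.74 and 11.79 on titled nicotine 2 and titled saccharin 2. At 0.053 its difference within number 1 was the smallest among the brightest probe sets, and its difference over all arrays was 0.00066 (SE 0.30, n = 2 each). A dimmer Atf4 probe set is of the kind that can also bind related transcripts. It read 11.63 and 10.57 in titled nicotine and 11.34 and 10.65 in titled saccharin, numbers 1 and 2. This gave 0.29 and -0.080 within numbers 1 and 2. Ddit3, which promotes cell death when stress persists, read 10.39 and 10.11 on titled nicotine 1 and titled saccharin 1 and 9.77 and 9.89 on titled nicotine 2 and titled saccharin 2. Its differences were 0.28 and -0.12.

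**Figure D2:**
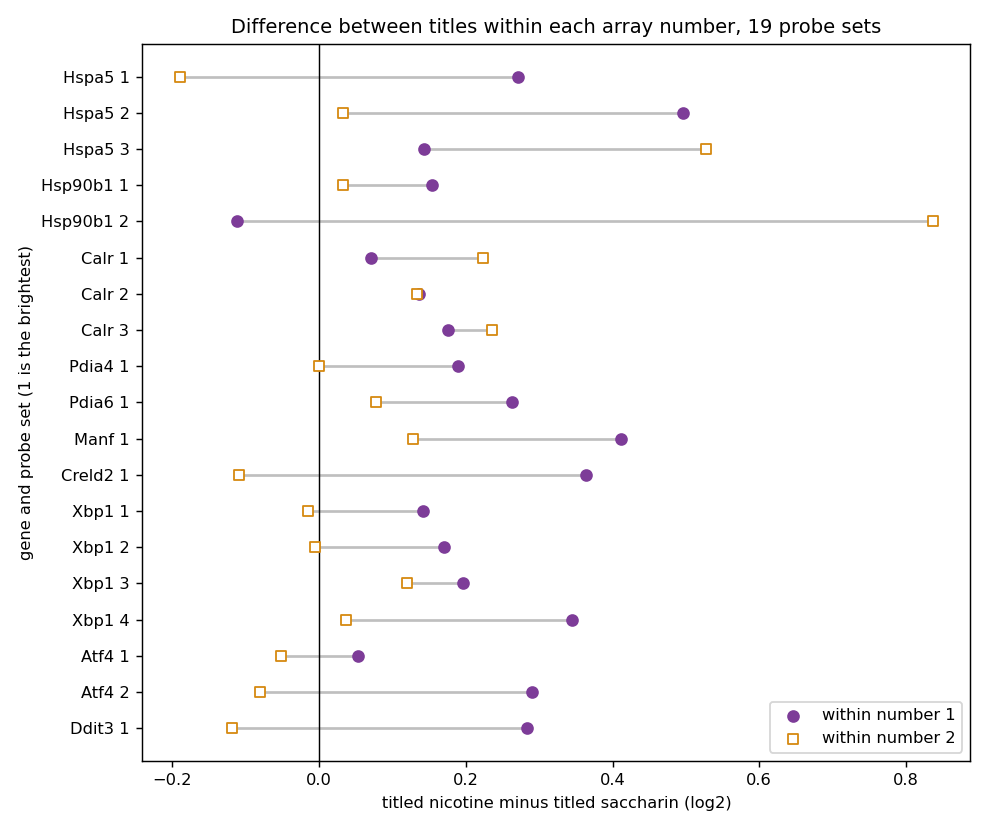
Difference between the titles (titled nicotine minus titled saccharin, log2) within array number 1 (filled circles) and within array number 2 (open squares) for the 19 bright probe sets, 1 being the brightest of each gene. Of the filled circles, 18 lie above 0 and the second probe set of Hsp90b1 lies at -0.11, while 11 of the squares lie above 0.

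The direction within number 1 is set against all genes as follows. At the brightest probe set, 10 of the 10 genes were higher in titled nicotine within number 1, where this held for 44.5% of the 12234 bright genes. Within number 2 it was 4 of the 10 against 39.5%, with 5 lower and Pdia4 at 0. Higher in both numbers were 4, Hsp90b1, Calr, Pdia6 and Manf, against 16.8% of all genes, and 0 were lower in both, against 30.6%. Over all 19 probe sets, 18 were higher within number 1, against 45.0% of all bright probe sets, and 10 in both, against 18.9%. The sizes were modest. The 10 differences within number 1 stood between the 70.5th and the 97.3rd percentile of those of all genes, whose SD was 0.21 within number 1 and 0.34 within number 2. In 9 of the 10 genes the difference was larger in number 1 than in number 2, against 54.9% of all genes, and Calr was the exception. Whether the contrast itself differed between the numbers could not be tested, since each number has 1 array per title.

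**Figure D3:**
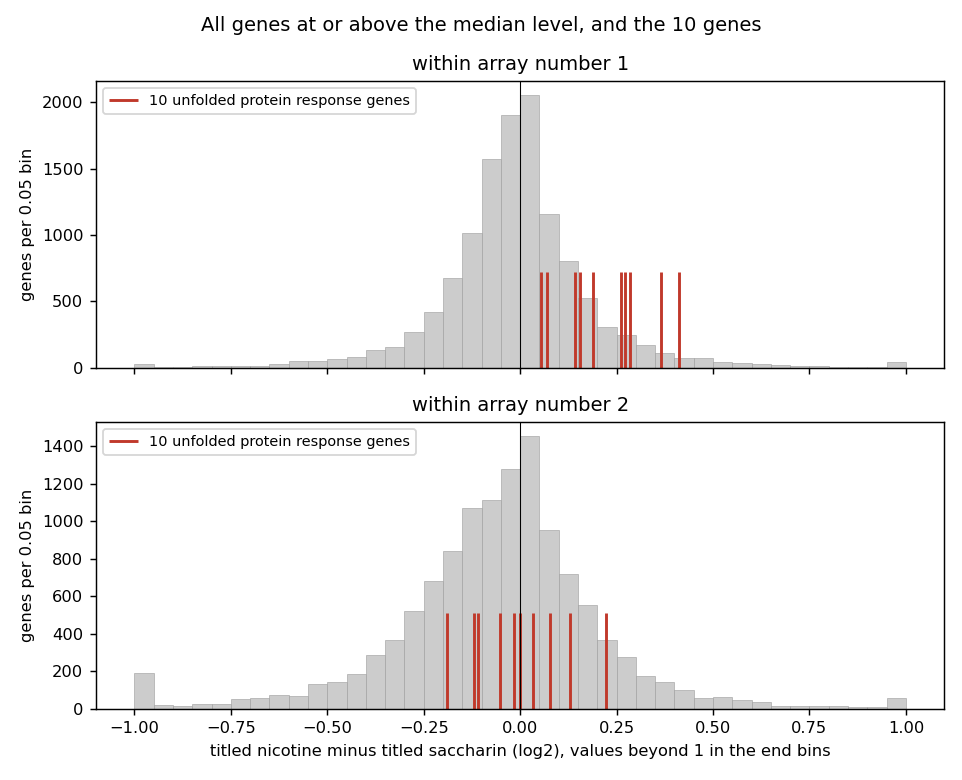
Histograms of the difference between the titles (log2) for the 12234 bright genes within number 1 (top) and within number 2 (bottom), with red lines at the 10 unfolded protein response genes. All 10 lines lie above 0 within number 1, between 0.053 and 0.41, and they spread from -0.19 to 0.22 within number 2.

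Titled nicotine 1 was the highest array for 8 of the 10 genes, against 34.0% of all bright genes. Titled nicotine 2 was the lowest for 6, Pdia4 included, where titled saccharin 2 was equal to it. The share of all bright genes lowest on titled nicotine 2 is not given here, so this count cannot be set against it. Averaged over all bright genes that array was also the lowest, at -0.12 from the mean of each gene, against -0.055 on titled saccharin 2. Calr and Pdia6 were highest on titled nicotine 2. A list of activity and dissection stress genes, which holds immediate early genes and cytosolic heat shock genes, was also high on titled nicotine 1 and lowest on titled nicotine 2. Unlike the 10 genes, it was in summed level about as high on titled saccharin 2 as on titled nicotine 1. Its members differed in this, since the heat shock genes Hspa1a and Hspa1b were highest on titled nicotine 1 and lowest on titled saccharin 2. All 10 measured members of the list were higher in titled nicotine within number 1, with a median of 0.41, and 2 of 10 within number 2, with a median of -0.69. Its summed linear level was 49256 and 33889 on titled nicotine 1 and 2, and 41895 and 48359 on titled saccharin 1 and 2. Arc, for example, read 11.26 and 9.19 in titled nicotine and 10.18 and 11.02 in titled saccharin. The part of this list in the values of the 10 genes was not tested. Of the choroid plexus markers, a secretory epithelium, 6 of 7 were higher in titled nicotine within number 2, and their summed level was 16044 on titled nicotine 2, against 4228, 3763 and 1794 on titled nicotine 1, titled saccharin 1 and titled saccharin 2. Most of this was Ttr, at 13.96 on titled nicotine 2 and 10.75 on titled saccharin 2, while Aqp1 and Kl were near the lowest value on every array. Of the 7 markers 3 were bright. Folr1 and Kcnj13 were also highest on titled nicotine 2. Clic6 and Sostdc1 read 4.36 and 5.34 there, close to their values on the arrays numbered 1, and were low on titled saccharin 2, at 3.07 and 4.00. The part of these markers in the values within number 2 was not tested.

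Between the array numbers the 10 genes did not move together. Of their brightest probe sets, 6 were lower on number 2 in both titles, against 59.6% of bright genes, and 2 were higher in both, Calr and Pdia6, against 22.5%. The direction changed with the title for Hspa5 and Hsp90b1. Pdia4 had the largest difference of these, with a mean of 9.02 on number 1 and 7.83 on number 2, a difference of -1.18 (SE 0.088, limma adjusted p = 0.0672). It was followed by Creld2 at -0.80 (SE 0.18, limma adjusted p = 0.180), while Atf4 at -0.45 had a smaller SE (0.035, limma adjusted p = 0.0698). No probe set of the 10 genes passed in this fit, in which 2.44% of all probe sets were called, 1.20% as higher and 1.25% as lower on number 2. With only bright probe sets in the fit, 30.2% of them were called, and 4 of the 19 passed. They were those of Pdia4 (limma adjusted p = 0.0145) and Creld2 (0.0466), the brightest of Atf4 (0.0282) and its dimmer one, which can also bind related transcripts (0.0308). These 4 and that of Ddit3 (limma adjusted p = 0.0446) passed with centred arrays, where 9501 of the 45101 probe sets were called. Pdia4 also passed with the trend and robust variance (limma adjusted p = 0.0461), where 1878 of the 45101 probe sets were called. Its equal values on the arrays numbered 2 leave no spread there, which narrows its SE. If they are a floor of the probe set, which was not tested, the size of its difference is uncertain too. With 1 array left out its difference ranged from -1.28 to -1.09.

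Several genes gave different answers at different probe sets here. Hsp90b1 was at -0.029 at its brightest probe set and at 1.46 at the other. For Xbp1 the brightest differed by -0.14 and another by 0.33. Hspa5 ranged from -0.081 to -0.87, whereas the 3 probe sets of Calr were all higher on number 2, by 0.13, 0.42 and 0.24. The direction of the first of these turned, to -0.023, with arrays centred on their medians. The numbers did not overlap for 7 of the 10 genes, against 74.5% of bright genes, nor at 15 of the 19 probe sets, against 74.8%, so these counts are close to those of the whole table. The differences of the 3′ and 5′ control probe sets, given above, also changed between the numbers, that of Gapdh less than that of Actb. Their part in these values was not tested.

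**Figure D4:**
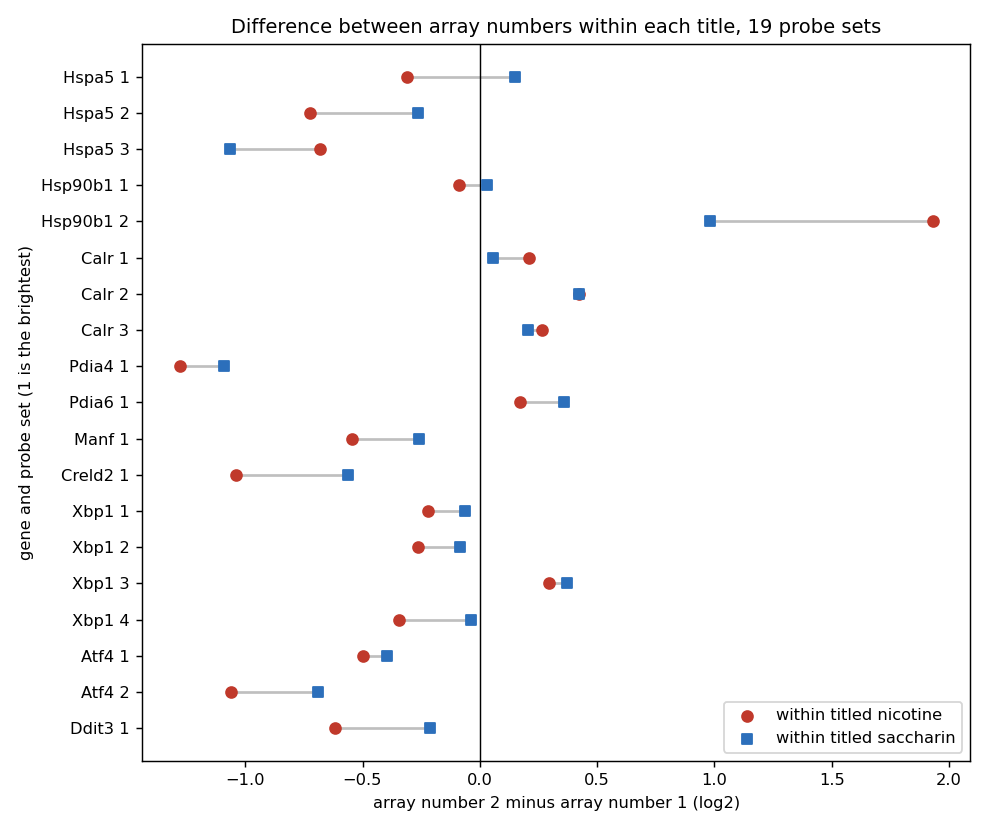
Difference between the array numbers (number 2 minus number 1, log2) within titled nicotine (red circles) and within titled saccharin (blue squares) for the 19 bright probe sets, 1 being the brightest of each gene. Pdia4 lies at -1.28 and -1.09, the second probe set of Hsp90b1 at 1.93 and 0.98, and the brightest ones of Hspa5 and Hsp90b1 fall on different sides of 0 in the 2 titles.

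Other genes of the pathway, in 4 lists, were set beside these. None of the 71 genes measured in the lists passed between the titles. The folding list, of chaperones, their cofactors and oxidases, had 13 of 19 genes higher in titled nicotine within number 1 (median 0.083) and 7 within number 2 (median -0.095). Among them Dnajb9, a cofactor of BiP, differed by 0.091 and 0.11 within numbers 1 and 2, Sil1, its nucleotide exchange factor, by -0.069 and -0.11, and the prolyl isomerase gene Fkbp2 by 0.0031 and 0.059. Of the sensors and their proteases, 4 of the 8 bright genes were higher within number 1 (median -0.059) and 2 within number 2 (median -0.076). Atf6, the sensor that is cut to a transcription factor, read 11.30 and 11.34 in titled nicotine and 11.12 and 11.12 in titled saccharin. The difference was 0.21 (SE 0.020, n = 2 each, limma adjusted p = 1), and it was the only gene of the lists with an unadjusted p under 0.05 between the titles, at 0.0053. Ern1, which encodes Ire1, stood at -0.22 and -0.76 within numbers 1 and 2, and Mbtps1, the protease that makes the first cut in Atf6, at -0.33 and -0.11.

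In the list of degradation and translocation 11 of 16 genes were higher within number 1 (median 0.014) and 7 within number 2 (median -0.080). Edem1, which directs glycoproteins to degradation, stood at -0.046 and -0.21, the lectin gene Os9 at -0.21 and -0.19, and the signal peptidase gene Spcs2 at 0.00010 and 0.28. The integrated stress response list, which holds targets of Atf4, had 11 of 24 higher within number 1 (median -0.0022) and 10 within number 2 (median -0.0084). Psat1, of serine synthesis, stood at 0.056 and 0.23, and the transfer RNA synthetase genes Aars and Sars at -0.091 and -0.11 and at 0.022 and -0.16. Against the 44.5% of all bright genes higher within number 1, the counts of the sensor and stress response lists were close, and those of the folding and the degradation lists were above it.

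**Figure D5:**
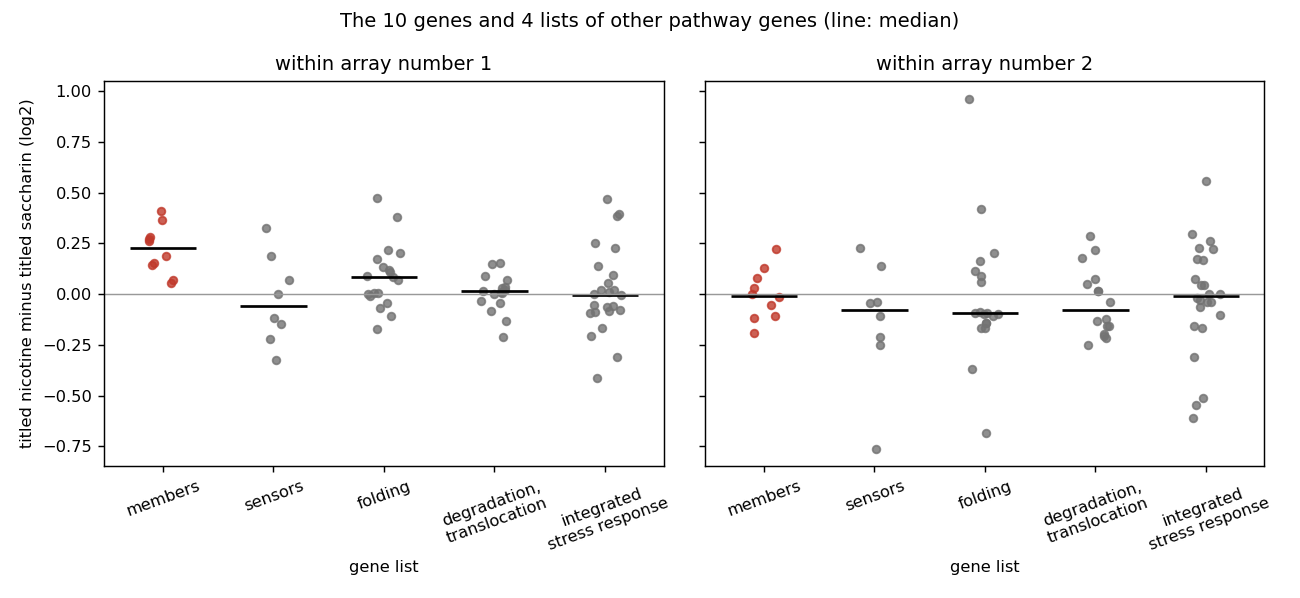
Difference between the titles (log2) within array number 1 (left) and within array number 2 (right) for the 10 genes (red) and for the bright genes of the 4 other lists of the pathway (grey), with a line at each median. Within number 1 the median of the 10 genes is 0.23 and those of the lists lie between -0.059 and 0.083.

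Between the numbers, 2 genes of the lists passed, in a fit that called 2.44% of all probe sets. Both belong to the serine and one-carbon pathway, and they went in opposite directions. Both probe sets are of the kind that can also bind related transcripts. Phgdh fell by 0.54 on number 2 (SE 0.020, limma adjusted p = 0.0413) and Shmt2 rose by 0.29 (SE 0.012, limma adjusted p = 0.0452). Both calls were lost with title as a term in the fit (limma adjusted p = 0.172 and 0.205). Without titled nicotine 1 or without titled saccharin 1 the call of Phgdh was lost (limma adjusted p = 0.203 and 0.197). That of Shmt2 was lost without any 1 of the 4 arrays (limma adjusted p from 0.112 to 0.166) and also under quantile normalization (0.0537), with centred arrays (0.182) and with the trend and robust variance (0.0945). The kinase gene Eif2ak1 stood at 1.38 (limma adjusted p = 0.110). Of the folding genes, Sdf2l1 differed by -1.52 (limma adjusted p = 0.119), Hyou1 by 0.61 (0.109) and Dnajc10 by -0.28 (0.126). Sdf2l1 and Hyou1 both encode partners of BiP, and they stood on opposite sides. Of the sensors, Mbtps2 stood at -0.42, Atf6b at -0.35 and Creb3l2 at -0.67, and of the degradation genes Syvn1, which encodes the ubiquitin ligase Hrd1, at -0.86 and Sec61b at -0.57, none of which passed in this fit. With only bright probe sets in the fit, of which 30.2% were called, 2 sensor genes were lower on number 2, 2 folding genes were higher and 1 lower, 3 degradation genes were lower, and 5 stress response genes were higher and 4 lower. Of those named here, Mbtps2, Atf6b, Sdf2l1, Hyou1, Syvn1, Sec61b, Eif2ak1, Phgdh and Shmt2 passed in it, and Creb3l2 and Dnajc10 did not (limma adjusted p = 0.0646 and 0.0613).

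The mean pattern of the 10 genes over the 4 arrays was 0.27 above their own mean on titled nicotine 1, 0.045 above it on titled saccharin 1, and 0.16 and 0.15 below it on titled nicotine 2 and titled saccharin 2. Averaged over the 12234 bright genes, the same deviation was 0.084 on titled nicotine 1, 0.095 on titled saccharin 1, -0.12 on titled nicotine 2 and -0.055 on titled saccharin 2. Of the 10 genes, Ddit3 lay nearest to their mean pattern, at a root mean square distance of 0.070, and Pdia4 farthest, at 0.44. Among genes in none of the lists, those nearest to it were Dedd2, Ubac2, Ipmk, Ttc9 and Pa2g4, at distances of 0.0039, 0.0085, 0.018, 0.020 and 0.020. Likeness here is over these 4 arrays only, among 12234 bright genes.

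In the authors' deposited table, whose direction is not given, the log2 fold change was negative at 18 of the 19 probe sets, against 43.5% of all bright probe sets. The authors' deposited table gave -0.27 for Manf, -0.27 for Pdia4, -0.16 for Creld2, -0.13 for Pdia6, -0.11 for Hspa5, -0.065 for Hsp90b1 and -0.14 for Calr at the brightest probe sets. It gave -0.036 for Xbp1 and -0.013 for Atf4, and the only positive value in the authors' deposited table was 0.039 for Ddit3. The adjusted p of each of the 22 probe sets was 1 in the authors' deposited table, where 0.0310% of all probe sets were under 0.05, and the smallest unadjusted p was 0.0926, for Calr. Its signs are thus opposite to those by title for 18 of these 19. The moderated statistic and p in the authors' deposited table correspond to 8.37 total degrees of freedom, against 2.32 in the fit of the 4 arrays. Over the 19 probe sets, the mean level in the authors' deposited table minus the mean of the 4 arrays ranged from -1.27 to 0.13. The table therefore rests neither on the same fit nor on the same values, and its signs are not a repeat of the comparison by title.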

How the data were processed

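Per the file headers and the values, the authors deposited log2 expression values per probe set for 4 arrays. How these were corrected, normalized and summarised is not stated in the sources used here. The authors' deposited limma table gives log2 fold changes, raw and adjusted p-values, and a moderated statistic taken here as a score, per the file headers. The submitters' processing notes name limma without a version. Symbols came from that table, and 6778 probe sets had none that was usable.

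Arrays were grouped by title. Titles, and in a second fit array numbers, were compared with limma 3.58.1 in R 4.3.3 (lmFit, eBayes) over all 45101 probe sets, with Benjamini-Hochberg adjustment and a threshold of 0.05; the fit was tested on simulated data. The brightest probe set stood for a gene. Members, lists and tests were chosen with earlier results of these data known. Named pathway genes are, per list, the 3 with the smallest p in each comparison among bright genes, of which 1 is not reported here. The nearest 5 genes were ranked by root mean square distance. The number of arrays limits the precision.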

Additional observations from a re-analysis of the deposited data

How the results depend on the processing

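No probe set of the 10 genes passed between the titles under quantile normalization, centring on the median, the filter on dim probe sets, the trend and robust variance, the block or any array left out. Between the titles 1 probe set was called in all, and 0 under quantile normalization, centring, the filter, the trend and robust variance, the array number as a replicate block and 1 probe set per gene (347 at an unadjusted p under 0.05 before these changes). With 1 array left out the count ranged from 0 to 379, and was 379 without titled nicotine 1 and 277 without titled saccharin 1. The labels do not explain the array numbers, and with 2 pairs it was not settled whether they pair the arrays. With the block the smallest limma adjusted p of the 22 probe sets was 0.411, for Calr, and 2 Calr probe sets had an unadjusted p under 0.05. The share of all probe sets under 0.05 with the block is not given here. Both Calr probe sets are of the kind that can also bind related transcripts. The smallest p rests on an SE of 0.0014, from nearly equal differences of 0.14 and 0.13 within the numbers. Between the numbers 1102 probe sets were called (539 higher and 563 lower on number 2), 9501 with centred arrays (2611 and 6890), 6820 with the filter, 1878 with the trend and robust variance, 639 with 1 probe set per gene, 0 with title as a term, and 989 to 3177 with 1 array left out, above 1.5 times the full count without titled nicotine 2 (2621) and without titled saccharin 2 (3177). The cause was not tested. Centring moved the median number difference of bright probe sets from -0.11 to -0.27.

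The median difference of the 10 genes by title was -0.081 to 0.22 with 1 array left out, the lowest without titled nicotine 1. The median of their log2 fold changes in the authors' deposited table, whose direction is not given, was -0.12. The count of genes higher in titled nicotine within number 1 was 10 under each of 3 settings added after seeing the data, and within number 2 it was 7 with centred arrays, where the share of all bright genes also went from 39.5% to 62.0%, since centring adds 1 constant to every difference within a number. In the authors' deposited table, of unstated direction, the values opposite in sign to those by title were -0.11, -0.32 and -0.32 for Hspa5, -0.065 and -0.31 for Hsp90b1, -0.14, -0.15 and -0.19 for Calr, -0.27 for Pdia4, -0.13 for Pdia6, -0.27 for Manf, -0.16 for Creld2, -0.036, -0.10, -0.18 and -0.082 for Xbp1, and -0.013, -0.18 and -0.0035 for Atf4. Number differences turned to -0.023 for Calr with centred arrays, and to -0.13 for the dim Atf4 probe set, or -0.096 under quantile normalization.

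With 1 array left out (which lets the number shift enter the title difference), title differences ranged from -0.11 to 0.20, -0.099 to 0.63 and -0.20 to 0.87 for Hspa5, -0.60 to 1.33 for the dimmer Hsp90b1 probe set, -0.078 to 0.35 for 1 of Calr, -0.54 to 0.73 for Pdia4, -0.0083 to 0.35 for Pdia6, -0.0016 to 0.54 for Manf, -0.39 to 0.65 for Creld2, -0.046 to 0.17, -0.049 to 0.21 and -0.027 to 0.34 for Xbp1, -0.25 to 0.25 and -0.43 to 0.64 for Atf4, and -0.23 to 0.39 for Ddit3. They ranged from -0.99 to 0.0038 for Ern1 and from -0.28 to 0.025 for Edem1. Number differences ranged from -0.22 to 0.055 for Hspa5 and from -0.11 to 0.048 for Hsp90b1.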

Other observations

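A pair of folding genes, singled out after their values were seen, had wider differences between the titles within number 2 than any of the 10 genes at their brightest probe sets. They were not alone in this, since Pdia3 and Dnajc3 stood at 0.42 and -0.37 within number 2. Pdia5, a protein disulfide isomerase gene like Pdia4, differed between the titles by 0.083 within number 1 and 0.96 within number 2, and was -1.51 between the numbers. Dnajc1, which encodes a membrane partner of BiP, stood at 0.38 within number 1 and -0.69 within number 2. Neither Pdia5 nor Dnajc1 passed a test in limma over all probe sets.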
